A study of Mus musculus with 8 samples.

Results

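The 10 genes described here, Satb1, Tcf7, Lef1, Bach2, Foxo1, Foxp1, Klf3, Btg1, Btg2 and Tob1, encode regulators that keep T cells in the naive, resting state. They were chosen by symbol from the 13751 genes of the deposited normalised table. No expression value entered the choice rule, but earlier results of these data were known when the genes were chosen. All 10 passed the filter on low counts that kept 13378 of 57010 genes for testing. The cells came from wild-type C57BL/6 mice: CD4 T cells were sorted in the naive state from peripheral lymph nodes and stimulated in culture for 20 h with plate-coated antibodies to CD3 and CD28 at 4 µg/mL each. The 4 control cultures received that stimulus alone, and the 4 FAC cultures received it with added iron; FAC is the labels' abbreviation for the iron supplement. Each mouse number from 1 to 4 names 1 control and 1 FAC culture, so libraries are called control 1 to 4 and FAC 1 to 4. The series asks how iron stimulates T-cell responses. The iron dose is not stated, nor is a vehicle for the controls, and the sources used here give neither age nor sex of the mice. All cultures were stimulated and no resting library was analysed here, so the values describe these genes in activated cells only.

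Naive T cells leave the thymus in a resting state that is held by transcription factors and by proteins that limit messenger RNA. FOXO1 and the TCF/LEF factors maintain the genes of naive cells, FOXP1 and KLF factors restrain growth and activation, BACH2 represses effector genes, and SATB1 folds chromatin into loops around T-cell genes. BTG1, BTG2 and TOB1 recruit the CCR4-NOT deadenylase, which shortens poly(A) tails and so promotes mRNA decay. Stimulation through the T-cell receptor and CD28 lowers much of this programme as the cell enters the cell cycle.

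Library totals ran from 25410267 to 37350609 counts. The 10 T-cell identity genes (such as Cd3e, Cd4 and Trac) summed to 3299 to 3442 CPM (counts scaled to a common library total) in the controls and 3461 to 3609 CPM with FAC. These marker sums use raw library totals, without the TMM factors (edgeR's scaling between libraries) used for CPM elsewhere. By edgeR, with those factors, the median log2 change of the 10 identity genes was 0.0. Cd8b1 had 157 to 396 counts and Cd8a 0 to 11, and the 2 CD8 markers summed to 7.96 to 10.7 CPM in the controls and 6.3 to 9.0 CPM with FAC. The 9 B-cell markers summed to 92.6 to 103 CPM and 93.7 to 110.1 CPM; nearly all of this was Ighm, with Blk and Cd22 among those at 0 in every library. The 12 myeloid markers summed to 25.6 to 28.8 CPM and 25.6 to 30.7 CPM, from Cst3 and Cd68, with Lyz2, S100a8 and S100a9 at 0. The 6 NK-cell markers summed to 1.40 to 2.36 CPM and 1.40 to 2.19 CPM, mostly Eomes, with Ncr1 at 0. The 7 stromal markers summed to 7.16 to 8.86 CPM and 8.22 to 10.8 CPM, mostly Pecam1, with Col3a1, Cdh5 and Pdpn at 0. The 5 red-cell markers summed to 0.0535 to 4.14 CPM in the controls, the top value in control 3 (Hba-a1 and Hba-a2), and 0 to 0.191 CPM with FAC. The part of these cells in the results below was not tested. In bulk RNA, fewer cells of a type and less RNA per cell cannot be told apart.

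All 10 genes were expressed after 20 h of stimulation, over a wide range. Levels are compared between genes as TPM, a share of all transcripts that allows for transcript length. In the controls the TCF/LEF factor Tcf7 was highest, at 236 TPM on average. It was followed by Foxp1 at 193, Lef1 at 171, Satb1 at 110.3, Btg1 at 97.9 and Bach2 at 72.6 TPM. Klf3 at 27.5, Foxo1 at 13.9, Btg2 at 12.1 and Tob1 at 5.81 TPM were lower. Against the 10982 tested protein-coding genes, the Tcf7 mean lay at percentile 94.5, that of Klf3 at 60.4 and that of Tob1 at 28.1. Neighbours in this order were separated in the control libraries except for 3 pairs whose ranges overlapped. Foxp1 and Lef1 overlapped, although Foxp1 was above Lef1 in 8 of 8 libraries. Satb1 was above Btg1 in 7 of 8 libraries, and Foxo1 above Btg2 in 6 of 8.

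**Figure D1:**
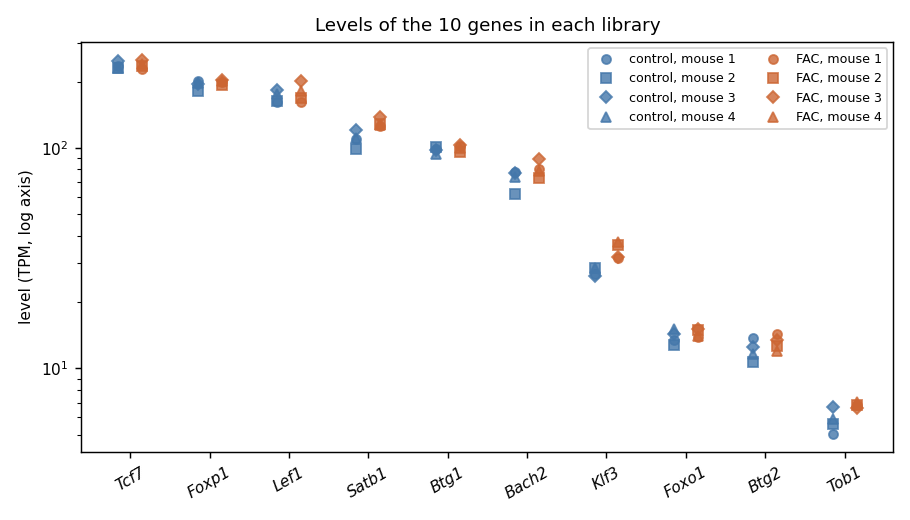
TPM of the 10 genes in each library on a log axis, controls and FAC libraries drawn separately. The genes span from 5.07 TPM (Tob1, control 1) to 249.5 TPM (Tcf7, FAC 3), and the groups of Satb1 and of Klf3 do not overlap.

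With FAC, 1 of the 10 genes, Satb1, was called higher and 0 were called lower by edgeR's quasi-likelihood test at a Benjamini-Hochberg adjusted p under 0.05 over all tested genes (the edgeR adjusted p). Over all 13378 genes, 2.18% were called higher and 1.10% lower. At an unadjusted p under 0.05 the count was 2 of 10, Satb1 and Btg1, close to the 18.4% of all tested genes. The median log2 change of the 10 was 0.01 against -0.001 for all tested genes, and the changes ran from -0.09 to 0.20. The other 9 genes did not pass. For Tcf7, Foxp1, Bach2, Foxo1, Lef1 and Btg1, the 95% intervals lay within -0.20 and 0.13 on the log2 scale. In CPM the FAC libraries lay wholly above the controls for 1 of 10 genes (Satb1; 6.17% of all tested genes) and wholly below for 1 of 10 (Btg1; 4.89% of all tested genes).

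**Figure D2:**
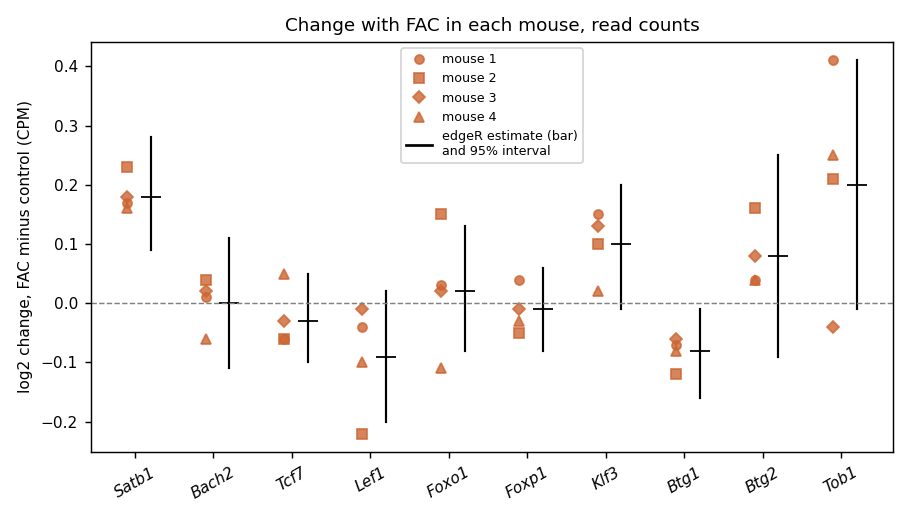
Log2 change with FAC of each of the 10 genes (edgeR on counts, short horizontal marks) with its 95% interval (black bars), beside the change within each mouse (points, 1 shape per mouse). Satb1 at 0.18 is the 1 gene called, and the intervals of Tob1 and Btg2 are the widest.

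Satb1 (ENSMUSG00000023927), the chromatin organiser, rose with FAC. Its level was 249, 239, 272 and 253 CPM in control 1 to 4 and 281, 281, 307 and 282 CPM in FAC 1 to 4. Every FAC library was above every control, and FAC was higher within 4 of 4 mice, by 0.17, 0.23, 0.18 and 0.16 on the log2 scale. The means were 253 ± 13.8 and 288 ± 13.0 CPM (SD, n = 4 each). The log2 change was 0.18 (SE 0.05, 95% interval 0.09 to 0.28), or 13.6% higher, with an edgeR adjusted p of 0.0425. With the mouse as a replicate block the edgeR adjusted p was 0.00324. Leaving out control 1, 2 or 4, or FAC 2 or 3, ended this call: the edgeR adjusted p then ran from 0.0851 to 0.162, and the log2 change from 0.15 to 0.19. In TPM, Satb1 was at 110.0, 98.9, 121 and 111 in the controls and at 126, 128, 138 and 127 with FAC, again with no overlap. With the effective length as an offset, the change was 0.20 and did not pass (edgeR adjusted p = 0.0840), but it did with the block as well (edgeR adjusted p = 0.0334).

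The RefSeq promoter of the first of 5 annotated Satb1 starts is shown because Satb1 is the gene that was called. It covers the 250 bases before the start (GRCm38.p6, chr17:51833291-51833540, minus strand), an earlier build than the GRCm39 of the deposited files. Motif cores were searched on both strands, and capitals would mark a match; there is none here. The letters were TAAACA (forkhead), CTTTGA (TCF/LEF), CCACCC (the CACCC box of KLF factors) and TGANTCA (BACH and AP-1). They occur in 12.0%, 13.8%, 28.1% and 6.75% of 32851 mouse promoters of this length.
Satb1 promoter: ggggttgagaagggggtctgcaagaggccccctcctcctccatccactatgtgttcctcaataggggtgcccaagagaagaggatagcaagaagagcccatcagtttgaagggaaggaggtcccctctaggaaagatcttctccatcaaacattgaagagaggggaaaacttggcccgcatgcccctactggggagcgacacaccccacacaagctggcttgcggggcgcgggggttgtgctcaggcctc
Its GC content is 58.0%, against a median of 52.4% over these promoters. Among the first starts of the 10 genes, TAAACA was found in 2, CTTTGA in 1, CCACCC in 4 and TGANTCA in 0. A match says only that these letters are present, and no match only that they are not in this window.

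The 3 tested unclassified transcripts (the TEC class of GENCODE) that overlap Satb1 on its own strand included 1 that rose with FAC. Of all tested genes, 2.18% were called higher and 1.10% lower. C230085N15Rik, which overlaps no annotated Satb1 exon, had 16, 9, 15 and 20 counts in control 1 to 4 and 34, 53, 88 and 35 counts in FAC 1 to 4. Control 2, the largest library, was below the filter's minimum count of 10, which is scaled to library size. The transcript thus entered the test only through its higher FAC libraries, which limits what its call and its separation of groups can show. Every FAC library was above every control in CPM, as for 6.17% of all tested genes. FAC 3 was the highest, as it was for Satb1. The means were 0.519 ± 0.203 and 1.78 ± 0.864 CPM (SD, n = 4 each), a log2 change of 1.79 (SE 0.39, edgeR adjusted p = 0.0256). It was no longer called when control 1, 2 or 3, or FAC 2 or 3, was left out (edgeR adjusted p up to 0.108). E430014B02Rik, also outside the exons, had 21, 40, 25 and 27 counts in the controls and 69, 56, 65 and 26 with FAC (log2 change 0.95, SE 0.27, edgeR adjusted p = 0.0786). Gm36931, which overlaps a Satb1 exon, had 17, 15, 25 and 23 counts in the controls and 35, 48, 31 and 37 with FAC (0.92, SE 0.29, edgeR adjusted p = 0.111). In CPM both were higher in 4 of 4 mice, E430014B02Rik in mouse 4 only from 0.950 to 1.02 CPM, and neither passed. Reads of these transcripts and of unspliced Satb1 RNA cannot be told apart in gene-level counts.

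**Figure D3:**
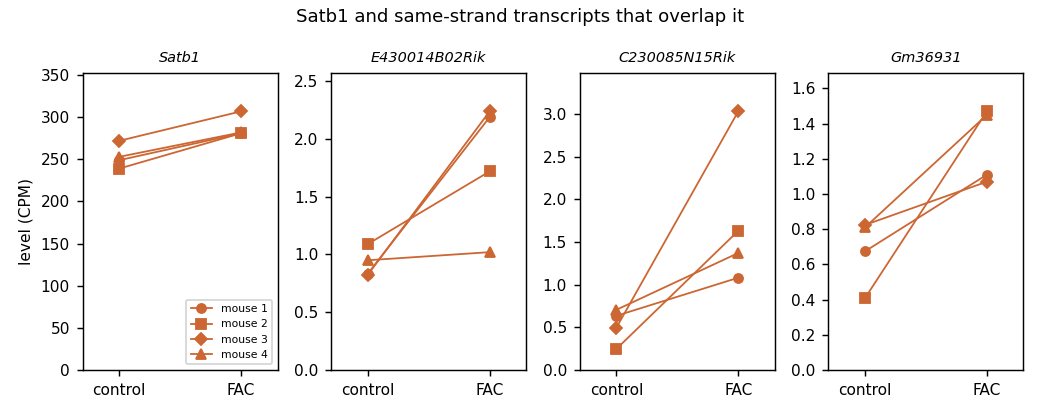
CPM of Satb1 and of the 3 tested transcripts that overlap it on the same strand, with lines joining the control and FAC libraries of a mouse. Each of the 4 features is higher with FAC in every mouse, and the groups of E430014B02Rik overlap.

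Around the other 9 genes, 6 overlapping transcripts had enough counts to be tested and 0 passed by edgeR. Counted over all 10 genes, 9 were tested and 1 was called higher, against 2.18% of all tested genes called higher and 1.10% lower. A630014C17Rik, antisense to Tcf7, changed by -0.03 (edgeR adjusted p = 0.970), and Bach2os, antisense to Bach2, by 0.13 (0.858 by edgeR). Lef1os1, antisense to Lef1, had the largest difference of the 6, at -0.59 (edgeR adjusted p = 0.213). Gm42449 within Lef1 was at -0.06 (edgeR adjusted p = 0.963). For Klf3, the opposite-strand Gm20033 was at -0.03 and the same-strand C230096K16Rik at 0.33 (edgeR adjusted p = 0.974 and 0.644). The library kit keeps strand, but the sources used here do not say whether the counting used it. If it did not, reads of a gene and of its antisense partner cannot be told apart.

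The TCF/LEF factors were close in both groups. Tcf7 (ENSMUSG00000000782), which encodes TCF1, a factor of naive and memory T cells, was at 368, 373, 383 and 355 CPM in control 1 to 4 and at 354, 357, 375 and 367 CPM in FAC 1 to 4. The groups overlapped, and the log2 difference was -0.03 (95% interval -0.10 to 0.05, edgeR adjusted p = 0.743). Lef1 (ENSMUSG00000027985), the partner factor of Tcf7, was at 173, 185, 185 and 168 CPM in the controls and 168, 159.5, 184 and 158 CPM with FAC. Lef1 was lower in 4 of 4 mice, but the groups overlapped and the difference of -0.09 (95% interval -0.20 to 0.02) did not pass (edgeR adjusted p = 0.374). With the effective length as an offset, the Lef1 difference was 0.02. Of 17 TCF/LEF partners and Wnt targets, 14 were tested and 0 passed by edgeR, with a median of 0.02. The smallest p values belonged to Bcl9l, a beta-catenin cofactor, at 0.14 (edgeR adjusted p = 0.412), and Axin1, a scaffold of beta-catenin degradation, at -0.05 (edgeR adjusted p = 0.576).

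Bach2 (ENSMUSG00000040270), a repressor of effector genes, was at 400.3, 355, 404 and 383 CPM in the controls and at 404, 365, 409 and 366 CPM with FAC. The groups overlapped almost fully, and the log2 difference was 0.00 (95% interval -0.11 to 0.11, edgeR adjusted p = 0.985). Of 8 BACH2 partners and relatives, 7 were tested and 0 passed by edgeR (median -0.03). Nfe2l1, a related factor of the proteasome response, was at -0.09 and Mafg, a small MAF partner, at 0.13 (edgeR adjusted p = 0.186 and 0.202).

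Of the forkhead factors, Foxo1 (ENSMUSG00000044167), which maintains homing and survival receptors of naive cells, was at 82.4, 80.6, 87.8 and 91.6 CPM in the controls. With FAC it was at 83.9, 89.3, 89.2 and 84.6 CPM, within the control range. The log2 difference was 0.02 (95% interval -0.08 to 0.13, edgeR adjusted p = 0.862). Foxp1 (ENSMUSG00000030067), which holds naive T cells in quiescence, was at 389, 386, 392 and 382 CPM in the controls and 400.2, 373, 390.5 and 375 CPM with FAC. Its difference was -0.01 (95% interval -0.08 to 0.06, edgeR adjusted p = 0.910), the FAC libraries lying on both sides of the controls.

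Among 18 FOXO factors and their T-cell targets, all tested, 2 rose and 0 fell, and the median was 0.16. Over all tested genes 2.18% were called higher and 1.10% lower. Sesn1, which encodes the stress protein sestrin 1, was at 15.9, 15.6, 15.9 and 15.1 CPM in the controls and at 19.3, 19.6, 20.4 and 17.5 CPM with FAC, with no overlap. It rose from 15.6 ± 0.390 to 19.2 ± 1.25 CPM (SD, n = 4 each; log2 change 0.30, edgeR adjusted p = 0.0339). That call ended without any 1 control or without FAC 2 or 3 (up to 0.135). The replicate block called 919 of all 13378 tested genes, 59.2% of them higher. With it 3 of the list were higher, the third being Ccr7, the chemokine receptor for lymph-node entry. Ccr7 went from 451 ± 16.3 to 498 ± 27.9 CPM (0.14, edgeR adjusted p = 0.102, with the block 0.0132). The other genes of the list did not pass. Of these, Il7r was at 2.05 ± 0.431 CPM in the controls and 1.90 ± 0.313 CPM with FAC, Klf2 at 2.54 ± 0.571 and 2.90 ± 0.733 CPM, and S1pr1 at 2.09 ± 0.365 and 1.82 ± 0.630 CPM. These 3, all low in level, were named after their values were seen and do not stand for the list. The log2 differences of the whole list ran from -0.21 to 0.67 around its median of 0.16. Of 12 FOXP relatives and other chromatin organisers, 10 were tested and 0 passed by edgeR (median 0.02), Hdac7 and Mta2, both of repressor complexes, being at 0.12 and -0.07 (edgeR adjusted p = 0.121 and 0.317).

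Klf3 (ENSMUSG00000029178), a zinc-finger repressor that binds CACCC boxes, did not pass by counts, nor per length in the fits without a block, although its difference was larger per length. It was at 57.6, 58.3, 56.4 and 64.0 CPM in the controls and 64.0, 62.5, 61.6 and 64.9 CPM with FAC. Control 4 lay among the FAC libraries, and the log2 difference was 0.10 (SE 0.05, 95% interval -0.01 to 0.20, edgeR adjusted p = 0.307). In TPM, Klf3 was at 26.9, 28.4, 26.2 and 28.6 in the controls and at 31.8, 36.4, 32.1 and 37.6 with FAC. Every FAC library was then above every control, with means of 27.5 ± 1.18 and 34.5 ± 2.94 TPM (SD, n = 4 each). In TPM, 2 of 10 genes, Satb1 and Klf3, had FAC libraries wholly above the controls, against 7.08% of all tested genes. With RSEM's effective length as an offset, the Klf3 difference was 0.29 (SE 0.07, edgeR adjusted p = 0.0686). It passed only when the mouse was a block as well (edgeR adjusted p = 0.0334), a setting added after the data had been seen. On the log2(TPM + 1) scale it was 0.31 (limma adjusted p = 0.0635), and in the deposited normalised signal 0.27 (limma adjusted p = 0.0874). With the block and offsets for GC content and annotated gene length, which do not use the effective length of each library, it was 0.08 (edgeR adjusted p = 0.232).

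The effective length follows the mean transcript length, the average over a gene's transcripts that RSEM weights by their estimated abundance. For Klf3 it was 3140.0, 2922, 3173 and 3286 bases in control 1 to 4 and 3005, 2587, 2905 and 2589 bases in FAC 1 to 4. FAC was below control within 4 of 4 mice, with FAC 1 inside the control range. The log2 differences and limma tests of length given here were made on the effective length, which for Klf3 was lower by 12.1%. The Klf3 log2 difference was -0.19 (SE 0.065) and did not pass (limma adjusted p = 0.711, unadjusted p = 0.0259). With the mean length in place of the effective length it was -0.18 (limma adjusted p = 0.617). For Bach2 the length was 7341, 7852, 7487 and 7434 bases in the controls and 7248, 7257, 6776 and 6764 bases with FAC. These groups did not overlap, and the difference of -0.10 did not pass either (limma adjusted p = 0.672). For Lef1 it was 1642, 1687, 1577 and 1493 bases and 1628, 1496, 1467 and 1384 bases (-0.11, limma adjusted p = 0.931), lower in 4 of 4 mice. For Btg1 it was lower in 3 of 4 mice (-0.08, limma adjusted p = 0.797). Satb1, Foxp1 and Tcf7 differed by at most 0.02 on the log2 scale in size, and Foxo1, Btg2 and Tob1 have 1 transcript each.

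By limma, 0 of the 10 genes changed in effective length, and 0.00747% of all tested genes (1 gene) changed. At an unadjusted p under 0.05 there were 3 (Klf3, Bach2 and Btg1), against 6.19% of all tested genes and 7.88% of those whose length varied. Among the 7 genes with several transcripts, 3 were shorter with FAC in 4 of 4 mice (Klf3, Bach2 and Lef1). This held for 9.47% of the 10512 tested genes whose length varied, while 584 of them were longer in 4 of 4 mice. Klf3 has 9 transcripts in GENCODE M21, from 298 to 5221 bases long. Which of them moved cannot be told from gene-level files.

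**Figure D4:**
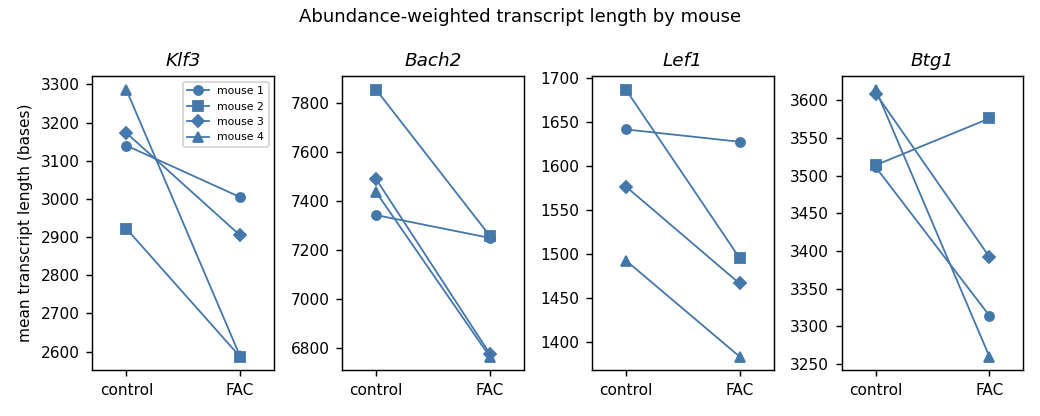
Mean transcript length in bases in each library for Klf3, Bach2, Lef1 and Btg1, with lines joining the cultures of a mouse; the axes do not start at 0. The FAC value is lower in 4 of 4 mice for Klf3, Bach2 and Lef1 and in 3 of 4 for Btg1.

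The Klf3 promoter is shown because Klf3 was the other gene whose groups did not overlap in TPM and because KLF factors bind CACCC boxes. It is the RefSeq sequence of the 250 bases before the gene's single start (GRCm38.p6, chr5:64803271-64803520, plus strand), with CCACCC or its reverse complement in capitals.
Klf3 promoter: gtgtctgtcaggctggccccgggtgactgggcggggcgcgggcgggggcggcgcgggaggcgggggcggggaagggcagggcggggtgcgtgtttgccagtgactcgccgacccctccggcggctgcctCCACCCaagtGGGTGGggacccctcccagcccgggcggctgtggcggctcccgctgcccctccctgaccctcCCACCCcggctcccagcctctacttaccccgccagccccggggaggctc
It holds 3 CCACCC matches, at 121, 111 and 49 bases before the start, and its GC content is 78.4%. Matches of this motif occur in 28.1% of promoters of this length, and whether a factor binds here was not measured.

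Of 14 further KLF factors and KLF3 corepressors, 11 were tested, 1 rose and 0 fell, with a median of 0.11. Over all tested genes 2.18% were called higher and 1.10% lower. Fhl3, which encodes a LIM-domain protein that partners KLF3, rose from 25.1 ± 2.27 to 30.7 ± 1.70 CPM (SD, n = 4 each; log2 change 0.29, edgeR adjusted p = 0.0418). Its controls were 22.1, 26.1, 27.5 and 24.8 CPM and its FAC libraries 29.8, 31.5, 32.7 and 28.9 CPM, with no overlap. Leaving out control 1, 2 or 4, or FAC 2 or 3, ended the call (edgeR adjusted p up to 0.156).

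The antiproliferative genes of the BTG/TOB family did not pass the test by counts. Btg1 (ENSMUSG00000036478), which restrains cell-cycle entry, was at 238, 252, 241 and 232 CPM in the controls and 227, 231, 232 and 220.4 CPM with FAC. It was lower in 4 of 4 mice with no overlap, by a log2 difference of -0.08 (95% interval -0.16 to -0.01) that did not pass over all genes (edgeR adjusted p = 0.236, unadjusted p = 0.0365). Per length the Btg1 difference was -0.01, and in TPM it was 0.03. Btg2 (ENSMUSG00000020423), its p53-induced relative, was at 25.5, 20.6, 23.0 and 21.4 CPM in the controls and 26.2, 23.0, 24.4 and 22.0 CPM with FAC. Btg2 was higher in 4 of 4 mice, but the mice differed by more than the cultures of a mouse, and the difference of 0.08 (95% interval -0.09 to 0.25) did not pass (edgeR adjusted p = 0.628). Tob1 (ENSMUSG00000037573), a repressor of T-cell proliferation, was the least expressed of the 10, with 196 to 334 counts per library. It was at 7.77, 8.84, 10.2 and 8.98 CPM in the controls and 10.3, 10.2, 9.88 and 10.7 CPM with FAC. The Tob1 difference was 0.20 (SE 0.10, 95% interval -0.01 to 0.41, edgeR adjusted p = 0.295), higher in 3 of 4 mice, so its size was similar to that of Satb1 and its interval wider.

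Of the 17 other BTG/TOB family and deadenylase genes, 16 were tested, 1 rose and 0 fell, with a median of -0.03. The shares over all tested genes were 2.18% higher and 1.10% lower. Pan3, a subunit of the PAN2-PAN3 deadenylase, rose from 58.9 ± 1.69 to 68.0 ± 3.06 CPM (SD, n = 4 each; log2 change 0.21, edgeR adjusted p = 0.0304). The Pan3 call ended without any 1 control or without FAC 2 or 3 (up to 0.134). With the replicate block, 2 were higher and 1 was lower, against 919 calls among all 13378 tested genes, 59.2% of them higher. The added genes were Pan2, the catalytic partner of Pan3, at 0.19 (edgeR adjusted p = 0.0914, with the block 0.0426) and Btg3 at -0.26 (edgeR adjusted p = 0.162, with the block 0.0299).

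Of 25 other quiescence regulators, 24 were tested, 0 rose and 1 fell (median -0.01). The shares over all tested genes were 2.18% higher and 1.10% lower. Runx1, which encodes a Runt-domain factor of T-cell development, was at 54.7, 58.4, 60.8 and 61.0 CPM in the controls and 46.3, 46.0, 51.2 and 47.4 CPM with FAC. It fell by 0.30 on the log2 scale (edgeR adjusted p = 0.00903) and was called whichever of the 8 libraries was left out (edgeR adjusted p at most 0.0418). Over all 13378 tested genes the block called 919, 59.2% of them higher. In this list 2 were higher with the block: Myb at 0.54 (edgeR adjusted p = 0.0613, with the block 0.0125) and Dgka at 0.14 (edgeR adjusted p = 0.344, with the block 0.0481). Of 16 naive surface and adhesion genes, 15 were tested, 1 rose and 0 fell (median 0.03), against the same shares over all tested genes. With the block Ccr7 was also higher and Il6ra, the IL-6 receptor chain, was lower, at -0.24 (edgeR adjusted p = 0.0513, with the block 0.00416).

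Of 18 activation genes, 17 were tested, 0 rose and 5 fell (median -0.09), against 2.18% higher and 1.10% lower over all tested genes. Tfrc, the transferrin receptor gene, which falls when cells hold more iron, fell by 0.79 on the log2 scale (edgeR adjusted p = 3.97e-07). Cd40lg, the ligand for B-cell help, fell by 0.36, and its call ended without FAC 2 (edgeR adjusted p = 0.0134 and 0.0533). Egr2, Cd44 and Tnfrsf4, induced by receptor signalling, fell by 0.30, 0.22 and 0.14 (edgeR adjusted p = 0.0412, 0.0363 and 0.0422). Each of these 3 calls ended without any 1 of at least 6 libraries, control 1, 2 and 3 and FAC 2 and 3 among them (edgeR adjusted p up to 0.154). With the block 1 activation gene was higher (Cd69, 0.16, edgeR adjusted p with the block 0.0164) and 7 were lower, with Myc and Il2 added. Among all 13378 tested genes the block called 919, 59.2% of them higher. Of the 10 T-cell identity genes, Cd247, the CD3 zeta chain, fell by 0.27 and Cd5, an inhibitory receptor, rose by 0.14 (edgeR adjusted p = 0.00453 and 0.0304). The Cd5 call ended without any 1 control or without FAC 2 or 3 (up to 0.127). With the block Cd28, the costimulatory receptor, was also higher (0.12, edgeR adjusted p = 0.316, with the block 0.0410).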

How the data were processed

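RNA from 8 cultures, 250 ng of total RNA each, was sequenced with a stranded mRNA kit, per the labels' protocols. Build GRCm39 and the tools RSEM 1.3.1, STAR 2.7.6a, DESeq2 1.26.0, DESeq, FastQC and R 3.6.3 appear in the submitters' processing notes; annotation release and strand setting are not given in the sources used here. For each library the authors deposited, per the file headers, RSEM expected counts (estimated reads per gene, not scaled between libraries), TPM values, and a mean and an effective transcript length in bases per gene. The authors also deposited 1 table of normalised signal for 13751 genes, with no scaling method named.

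Expected counts were rounded and tested with edgeR 4.0.16 (R 4.3.3): quasi-likelihood test, TMM factors, filter at a minimum count of 10 and total of 15, group alone, Benjamini-Hochberg adjustment over 13378 genes, calls under 0.05. CPM values are on the TMM scale, except the marker sums and the 1 CPM cut for markers, which use raw library totals. SEs are the change over the square root of F and approximate. TPM, the signal and effective lengths were tested with limma 3.58.1 on log2 values, with pseudocounts of 1 or 0.1 for TPM, 1 for the signal and none for lengths. DESeq2 1.42.0, limma-voom, other factors, no filter, the mouse as a block, length and GC offsets, and leaving out each library were alternatives. Scripts were tested on simulated data.

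A mouse number marks cultures of 1 animal, and the pairing rests on it. Deviations from the group mean correlated across genes within mice 1 to 4 at r = 0.137, 0.0165, 0.0647 and 0.139; the highest r between mice was 0.0331. Overlapping transcripts came from GENCODE M21 (GRCm38) and promoters from RefSeq.

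The 10 genes and the other lists were chosen with earlier results of these data known. From the other lists, the called genes are named (if over 6, the 3 largest changes each way), or the 2 with the smallest p where none was called; overlapping transcripts tested and other cells' markers above 1 CPM are named. Called genes of these lists that are not named in the text are not reported here.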

Additional observations from a re-analysis of the deposited data

Results flagged for a closer look

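In 3 of 54 combinations of gene, group and readout, the highest of 4 libraries stood apart from the next by more of the group's range than Dixon's 95% critical value; chance flags about 1 group in 20. Satb1 in FAC 3 was at 307 CPM, against 281 to 282 CPM in the other FAC libraries. The TPM of Satb1 in FAC 3 was 138, against 126 to 128. The mean transcript length of Tcf7 in FAC 1 was 2344 bases, against 2309 to 2315 bases. Without FAC 3 the Satb1 log2 change was 0.15 (edgeR adjusted p = 0.162).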

How the results depend on the processing

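The number of the 10 genes called higher was 1 and became 0 with the effective length offset, with limma on log2(TPM + 1), log2(TPM + 0.1) and log2(deposited signal + 1). It was 2 (Satb1 and Klf3) with the replicate block and the length offset together, an alternative chosen after seeing the data, and 0 to 1 when 1 library was left out. With the replicate block alone it was 1, Satb1 at 0.18 (edgeR adjusted p = 0.00324), and the block changed no other call among the 10. The number lower was 0 but 1 with the block plus GC and length offsets (Btg1, -0.11, edgeR adjusted p = 0.0407). Over all genes, 438 were called; 797 with DESeq2, 736 with no filter, 919 with the replicate block, 195 with the length offset, 144 and 138 in log2(TPM + 1) and log2(TPM + 0.1), 156 in the deposited signal, 219 with block and length offset, 1179 with block, GC and length offsets, and 147 to 549 without 1 library. The share of calls that were higher was 66.4% but 77.8% and 78.3% with TPM and 50.6% with block, GC and length offsets.

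Signs turned only for log2 differences that did not pass. They became 0.012 and 0.012 for Tcf7, 0.052 and 0.052 for Lef1, 0.045 and 0.046 for Foxp1 and 0.03 and 0.03 for Btg1 with TPM at pseudocounts 1 and 0.1. Lef1 was also at 0.018 with the length offset, 0.0048 in the signal and 0.016 with block and length offset. Foxp1 was at 0.012 with library totals only, 0.0091 with the length offset and 0.0092 with the block as well. Bach2 was at -0.0093 with no filter, and with block, GC and length offsets Bach2 was at -0.022 and Foxo1 at -0.051. Without 1 library, the ranges were -0.035 to 0.027 for Bach2, -0.0072 to 0.054 for Foxo1, -0.03 to 0.0017 for Foxp1 and -0.037 to 0.0017 for the effective length of Foxp1. The cause was not tested. The 4 mice and counts without molecular identifiers limit the precision: Tob1, with 196 to 334 counts per library, has the widest interval.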

Other observations

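Klf4, a KLF factor that restrains T-cell proliferation, was picked out after its values were seen. It was at 0.515, 0.734, 0.758 and 0.810 CPM in control 1 to 4 and 0.826, 1.41, 1.51 and 1.88 CPM in FAC 1 to 4, with no overlap. The log2 difference was 0.98 (SE 0.30), higher in 4 of 4 mice, and did not pass (edgeR adjusted p = 0.0974, and 0.0595 with the replicate block). Myb, also picked out after its values were seen, was at 6.74, 6.50, 8.73 and 6.65 CPM in the controls and 9.05, 12.2, 12.1 and 8.25 CPM with FAC, where FAC 4 lay inside the control range.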
